A study of Mus musculus with 9 samples.

Results

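Reactive astrocyte genes are transcripts that astrocytes, the star-shaped support cells of the brain, are known to raise after injury, inflammation or amyloid deposition. Such a set was read here by gene symbol from the table of counts: Gfap, Vim, Serpina3n, Osmr, Cd44, Lcn2, S1pr3, Timp1, Stat3 and Cp. All 10 were found once each among the 56748 genes of the table, and 8 of them passed the filter on low counts and were tested with 17575 genes in all. Lcn2 and Timp1 were too low to be tested and are described by their counts. The 8 tested members had at least 2.97 CPM (counts per 1e6 of the TMM-scaled total) in every library, so none entered the test through 1 genotype alone.

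RNA was sequenced from the brain, with the cerebellum taken off, of mice aged 7 months. Per the labels each library is 1 mouse, with n = 3 for each of 3 genotypes. Wild-type mice carry no transgene. 5xFAD mice carry mutant human amyloid precursor protein and presenilin transgenes under the neuronal Thy1 promoter and deposit amyloid. 5xFAD/Cd5l tg/wt mice carry the same 5xFAD transgenes and, in addition, a transgene of mouse Cd5l driven by a human PDGF-B promoter, which is commonly used to drive expression in neurons. CD5L is a secreted protein of tissue macrophages. No group carries the Cd5l transgene without 5xFAD, so an effect of Cd5l outside the amyloid model cannot be read from these samples. The sources used here give no strain, sex, litter or founder line of the Cd5l transgene.

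GFAP and vimentin are intermediate filament proteins that build the cytoskeleton of a reactive astrocyte. Cytokines of the interleukin-6 family, such as oncostatin M, bind receptors that share the subunit gp130, and Janus kinases then activate the transcription factor STAT3, which in astrocytes is known to be needed for much of the rise of GFAP after injury. CD44 binds hyaluronan and osteopontin at the cell surface, and S1PR3 is a receptor for the lipid sphingosine-1-phosphate. Serpina3n, lipocalin-2, TIMP1 and ceruloplasmin act as a protease inhibitor, a carrier of iron-binding siderophores, an inhibitor of matrix metalloproteinases and a copper-containing ferroxidase. Several of these genes are not limited to astrocytes, since vimentin, CD44, OSMR and S1PR3 are also made by vascular, meningeal or immune cells, and bulk RNA does not tell the cells apart.

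The promoters of Gfap, Serpina3n and Osmr are shown because these are the members whose counts rose most clearly below. Each run holds 250 bases before and 50 bases after a start site, 5′ to 3′ on the gene's strand, from RefSeq on the build GRCm38.p6, while the gene coordinates given later are those of the table on GRCm39. Capitals mark matches to the STAT motif TTCNNNGAA in Gfap and to the AP-1 motif TGANTCA in Osmr.
Gfap: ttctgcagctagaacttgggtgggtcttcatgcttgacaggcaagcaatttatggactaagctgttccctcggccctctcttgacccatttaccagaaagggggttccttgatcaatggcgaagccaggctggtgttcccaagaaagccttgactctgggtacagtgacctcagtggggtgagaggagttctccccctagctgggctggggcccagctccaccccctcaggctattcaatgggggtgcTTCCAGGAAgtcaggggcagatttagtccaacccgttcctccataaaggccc
Serpina3n: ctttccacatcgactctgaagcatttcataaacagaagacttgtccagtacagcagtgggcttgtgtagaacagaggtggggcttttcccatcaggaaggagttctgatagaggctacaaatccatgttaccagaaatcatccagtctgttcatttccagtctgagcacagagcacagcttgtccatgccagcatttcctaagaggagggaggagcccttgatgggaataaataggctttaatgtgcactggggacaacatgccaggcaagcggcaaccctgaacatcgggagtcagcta
Osmr: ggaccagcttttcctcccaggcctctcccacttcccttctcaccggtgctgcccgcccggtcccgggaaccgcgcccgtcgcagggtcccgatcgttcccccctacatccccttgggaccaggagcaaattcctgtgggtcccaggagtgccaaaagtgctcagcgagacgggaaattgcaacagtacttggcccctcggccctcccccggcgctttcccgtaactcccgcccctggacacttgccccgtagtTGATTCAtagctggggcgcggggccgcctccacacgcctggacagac
The windows lie at chr11:102897151-102897450 (minus strand), chr12:104406458-104406757 (plus strand) and chr15:6874264-6874563 (minus strand). Both strands were searched in 11 windows of the 10 members. The STAT motif was found once, in Gfap, as TTCCAGGAA starting at base 249 of the window, and 8.3% of 32851 promoter windows of this length hold it. The AP-1 motif was found in Osmr, as TGATTCA starting at base 254, and in 1 of the Cp windows at base 74, against 7.81% of all windows. A match is a description of letters and not a bound site, and the Serpina3n window holds neither motif.

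The libraries held 14575416 to 17865150 counts. Cd5l itself checked the labels: its 3 transgenic libraries held 2553, 2822 and 3551 counts of it, each 5xFAD library 0, and all wild-type libraries together 1. The 12 markers of astrocyte identity were all detected in every library. The markers of hindbrain and cerebellum summed to 712 CPM in wild-type library 3 and to between 28.5 and 132 CPM in the other 8, with the lowest sums in library 2 (28.5) and library 3 (39.2) of 5xFAD/Cd5l tg/wt. Of these 3 only wild-type library 3 stood far from the rest. Library 1 of 5xFAD/Cd5l tg/wt had 56.4 CPM and the 5xFAD libraries 64.5 to 88.3 CPM. All 5xFAD/Cd5l tg/wt sums still lay below every 5xFAD and every wild-type sum (73.1 CPM or more). Of 6 tested markers, 1 fell in 5xFAD and 3 fell in 5xFAD/Cd5l tg/wt against wild-type, and none passed between the amyloid genotypes. The part of such regional differences in the members' results was not tested. A fit without wild-type library 3 and libraries 2 and 3 of 5xFAD/Cd5l tg/wt is given below where it changed a call. It leaves library 1 of 5xFAD/Cd5l tg/wt alone in its genotype, the highest there for 6 of the 8 tested members. That library is then assumed to vary like those of the other genotypes.

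In 5xFAD against wild-type mice, Gfap and Serpina3n rose and the 6 other tested members did not pass an adjusted p of 0.05 (edgeR's quasi-likelihood test, adjusted over all tested genes). Of all tested genes 1.06% rose and 2.44% fell in this comparison. In 4 of the 8 members (Gfap, Serpina3n, Osmr and Stat3) every 5xFAD library lay above every wild-type library, a pattern seen in 10.4% of tested genes. The median log2 fold change of the 8 members was 0.368, beside -0.011 over all tested genes. In a tissue sample, more cells of a type and more RNA per cell cannot be told apart.

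In 5xFAD/Cd5l tg/wt against 5xFAD mice, which asks what Cd5l adds to the amyloid model, Osmr rose and the 7 other tested members did not pass. Of all tested genes 5.34% rose and 0.888% fell. Gfap, Osmr and Cd44 were higher in every 5xFAD/Cd5l tg/wt library than in every 5xFAD library (3 of 8 members, beside 16.6% of tested genes). The members' median was 0.315, beside 0.007 over all tested genes.

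In 5xFAD/Cd5l tg/wt against wild-type mice, Gfap, Serpina3n, Osmr and Cd44 rose, 4 of 8 members where 1.38% of all tested genes rose and 0.199% fell. In 5 of the 8 members (these and Stat3) the libraries did not overlap and were all higher, beside 7.93% of tested genes. The members' median was 0.797, beside 0.001 over all genes. No tested member fell in any of these comparisons. Set against wild-type, the mean of both amyloid genotypes was higher for Gfap (1.76 ± 0.11, SE), Serpina3n (1.65 ± 0.19) and Osmr (1.35 ± 0.21) past the threshold, 3 of 8 where 1.21% of tested genes rose and 0.376% fell, and the libraries of 4 of 8 members were all higher, beside 2.78% of tested genes. The comparisons share libraries, so their counts are not independent of each other. Counts at an unadjusted p under 0.05 are given below without the share over all genes, and many genes had such values. By edgeR's test, Cd44's p of 0.0381 ranked 2469 of 17575 in 5xFAD against wild-type. In 5xFAD/Cd5l tg/wt against 5xFAD, Cd44's p of 0.0138 ranked 2153 and Vim's p of 0.114 ranked 5846 by that test. In 5xFAD/Cd5l tg/wt against wild-type, Vim's p of 0.0221 ranked 1294 and S1pr3's p of 0.0616 ranked 2460. The number of tested genes with an unadjusted p under 0.05 lay between the ranks given for each of these last comparisons. Such counts are not read as results about the lists.

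**Figure D1:**
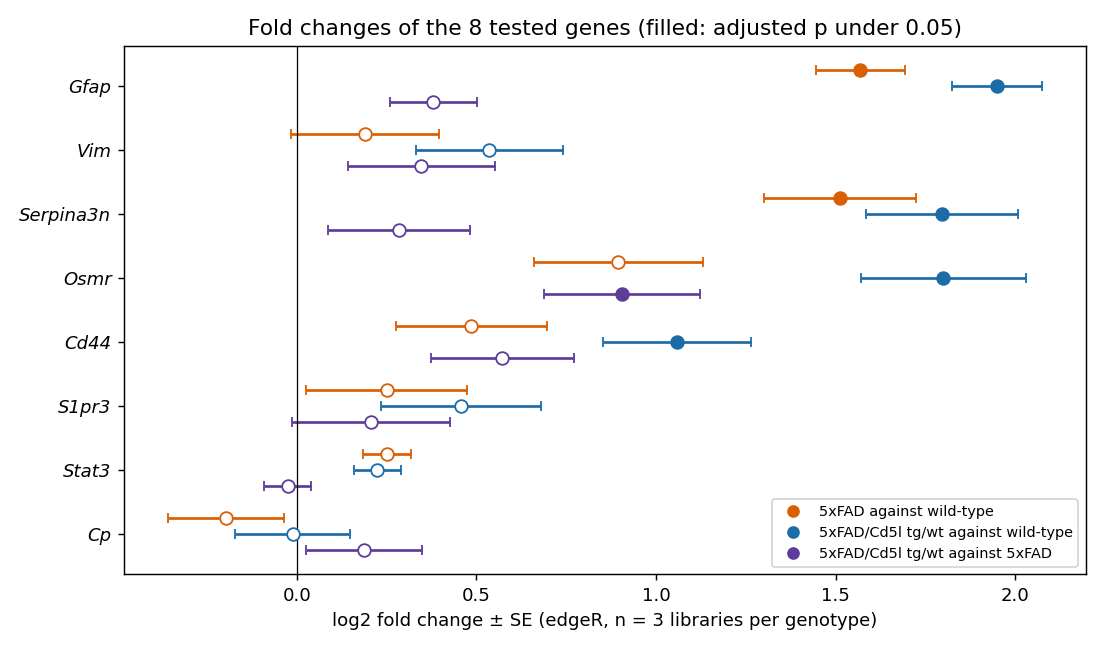
Log2 fold changes of the 8 tested members (x axis, points with bars for the SE) in the 3 comparisons of genotypes, filled where the adjusted p was under 0.05. Gfap, Serpina3n and Osmr lie farthest to the right against wild-type. Stat3 lies close to 0 in 5xFAD/Cd5l tg/wt against 5xFAD, and Cp in 5xFAD/Cd5l tg/wt against wild-type.

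Gfap (ENSMUSG00000020932, chromosome 11, 102778162 to 102791738, GRCm39, minus strand, protein coding) was the most abundant member. The wild-type libraries held 272, 205 and 217 CPM, the 5xFAD libraries 698, 650 and 714 CPM, and the 5xFAD/Cd5l tg/wt libraries 1064, 763 and 857 CPM. The 3 genotypes formed 3 separate ranges, with wild-type lowest and 5xFAD/Cd5l tg/wt highest, and its library 1 stood above the other two. Gfap rose by a log2 fold change of 1.57 ± 0.12 (SE, n = 3 per genotype, adjusted p = 2.93e-05 in edgeR's quasi-likelihood test) in 5xFAD and by 1.95 ± 0.13 (adjusted p = 4.75e-06) in 5xFAD/Cd5l tg/wt against wild-type. Between the amyloid genotypes the difference was 0.38 ± 0.12, with a 95% interval of 0.118 to 0.642 and an adjusted p of 0.0856. That last difference passed in 4 of 20 alternatives. These were the replicate number as a block (adjusted p = 0.0331), DESeq2 (0.0404), no filter (6.52e-05), and the fit without the 3 libraries named above (0.61). That last fit kept only the high library 1 for 5xFAD/Cd5l tg/wt. With any 1 library left out the difference ran from 0.2344 to 0.4819 and did not pass (adjusted p = 0.0577 to 0.294, edgeR's quasi-likelihood test).

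Vim (ENSMUSG00000026728, chromosome 2, 13578738 to 13587637, plus strand) encodes the partner filament of GFAP, and its differences did not pass the test on all 9 libraries. It was at 39.9, 38.7 and 47.1 CPM in wild-type, at 50.3, 46.2 and 46.8 CPM in 5xFAD, and at 89.4, 44.8 and 48.1 CPM in 5xFAD/Cd5l tg/wt libraries. A single library, library 1 of 5xFAD/Cd5l tg/wt, was high, and the other two lay in the range of the other genotypes. The difference between 5xFAD and wild-type was 0.19 ± 0.21 (adjusted p = 0.720), and that between 5xFAD/Cd5l tg/wt and wild-type was 0.54 ± 0.21 (adjusted p = 0.299, edgeR's quasi-likelihood test). Between the amyloid genotypes it was 0.35 ± 0.20 (adjusted p = 0.343), and without library 1 it turned to -0.04. Without wild-type library 3 and libraries 2 and 3 of 5xFAD/Cd5l tg/wt, so that only library 1 stood for its genotype, Vim passed in these 3 comparisons (0.29, adjusted p = 0.0398; 1.18, 1.36e-05; 0.89, 0.000296). Without a filter on low counts it passed in 5xFAD/Cd5l tg/wt against wild-type (0.53, adjusted p = 1.29e-05) and between the amyloid genotypes (0.33, adjusted p = 0.0173).

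**Figure D2:**
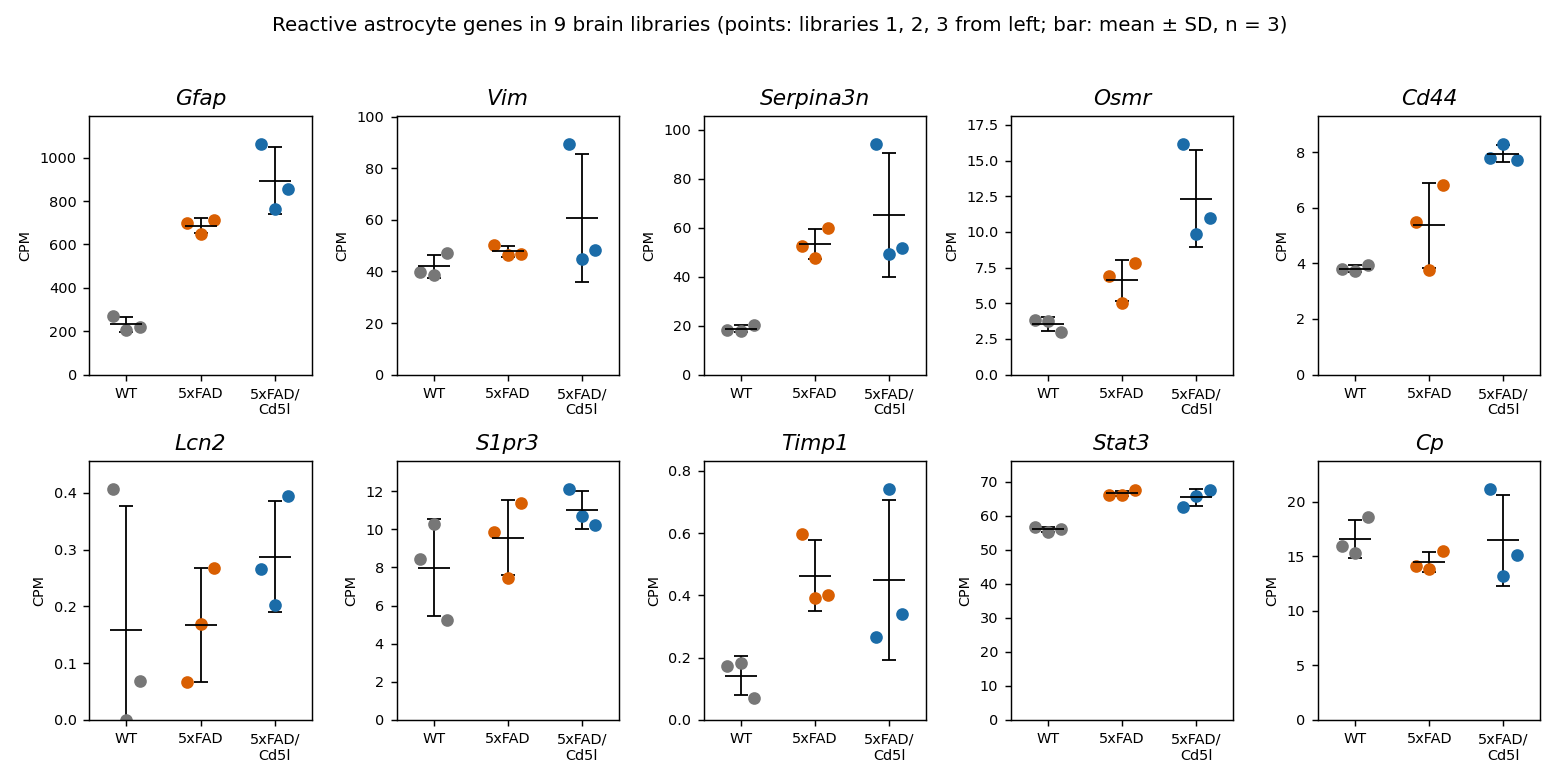
Level of each of the 10 members in CPM (y axis, starting at 0) in each library of the 3 genotypes, with points for libraries 1, 2 and 3 from left to right, lines for the mean and bars for the SD (n = 3). Gfap forms 3 separate ranges by genotype, while Vim and Serpina3n are highest in library 1 of 5xFAD/Cd5l tg/wt (89.4 and 94.3 CPM).

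Other intermediate filament and linker genes had another pattern than Gfap. Of 6 tested genes (Nes, Synm, Des, Plec, Lmna and Dst), none passed in 5xFAD against wild-type with edgeR, although 2 had an unadjusted p under 0.05 and 1 passed as lower with DESeq2 and without wild-type library 3, library 1 of 5xFAD/Cd5l tg/wt or the 3 libraries named above. All 6 log2 fold changes were negative there (median -0.267) and all 6 were positive in 5xFAD/Cd5l tg/wt against 5xFAD (median 0.293), and these comparisons share the 5xFAD libraries. Plec, which encodes the cytoskeletal linker plectin, was at 213, 193 and 165 CPM in wild-type, at 151, 158 and 146 CPM in 5xFAD and at 192, 199 and 195 CPM in 5xFAD/Cd5l tg/wt libraries. The 5xFAD libraries were the lowest without overlap. Plec rose by 0.36 ± 0.08 in 5xFAD/Cd5l tg/wt against 5xFAD (adjusted p = 0.0259), but not without 5xFAD library 1, 2 or 3 or library 2 or 3 of 5xFAD/Cd5l tg/wt (adjusted p = 0.0834 to 0.117) or with offsets for gene length (0.1935). Nes, the filament of neural progenitors and of some reactive astrocytes, had 8.70 to 9.77 CPM in 5xFAD, 9.67 to 15.1 in wild-type and 11.5 to 12.3 in 5xFAD/Cd5l tg/wt libraries, and did not pass (-0.37 ± 0.16, adjusted p = 0.274, in 5xFAD against wild-type). Against wild-type none of the 6 passed in 5xFAD/Cd5l tg/wt mice with edgeR, DESeq2 or limma-voom, and 0 had an unadjusted p under 0.05.

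Osmr (ENSMUSG00000022146, chromosome 15, 6843058 to 6904450, minus strand) encodes the receptor subunit that pairs with gp130 to bind oncostatin M. It was at 3.84, 3.77 and 2.97 CPM in wild-type, at 6.95, 5.05 and 7.83 CPM in 5xFAD, and at 16.2, 9.85 and 11.003 CPM in 5xFAD/Cd5l tg/wt libraries. Like Gfap, Osmr formed 3 separate ranges in the order wild-type, 5xFAD, 5xFAD/Cd5l tg/wt. The share of all tested genes with 3 such ranges was not counted. It rose by 1.80 ± 0.23 in 5xFAD/Cd5l tg/wt against wild-type (adjusted p = 0.000909, edgeR's quasi-likelihood test) and by 0.90 ± 0.22 against 5xFAD (adjusted p = 0.0302).

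The rise of Osmr over 5xFAD rested on several libraries. It failed the threshold without 5xFAD library 1 (adjusted p = 0.104) or 2 (0.155), without library 1 (0.66, adjusted p = 0.0515) or 3 (0.0637) of 5xFAD/Cd5l tg/wt, or with offsets for gene length (0.0558), and its direction held in each. In 5xFAD against wild-type Osmr differed by 0.90 ± 0.23 (adjusted p = 0.0603), past the threshold in a fit of those 6 libraries (0.0397), with DESeq2 (0.0113), without a filter (0.000826), without library 1 of 5xFAD/Cd5l tg/wt (0.0214) and without the 3 libraries named above (0.0384).

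Stat3 (ENSMUSG00000004040, chromosome 11, 100775924 to 100830366, minus strand), the transcription factor downstream of gp130, varied little among mice. The wild-type libraries held 56.6, 55.2 and 56.1 CPM, the 5xFAD libraries 66.0, 66.2 and 67.5 CPM, and the 5xFAD/Cd5l tg/wt libraries 62.7, 65.9 and 67.5 CPM. Both amyloid genotypes lay above wild-type without overlap, and they overlapped each other. The difference was 0.25 ± 0.07 in 5xFAD (adjusted p = 0.0633) and 0.22 ± 0.07 in 5xFAD/Cd5l tg/wt (adjusted p = 0.151) against wild-type. The first of these passed with DESeq2 (0.0299), with a filter of 1 CPM in 3 libraries (0.0466), with offsets for gene length (0.0295), without library 1 of 5xFAD/Cd5l tg/wt (0.0432) and without the 3 libraries named above (0.0433). Between the amyloid genotypes the difference was -0.03 ± 0.07, with a 95% interval of -0.169 to 0.118. These are transcript levels and carry no information on phosphorylated STAT3.

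The rest of the STAT3 pathway was listed by role. Of 9 ligand genes only Lif, Ctf1 and Clcf1 were high enough to be tested, and Il10 and Lep were at 0 counts in every library. Osm, which encodes the ligand of OSMR, was at 0.058, 0 and 0.277 CPM in wild-type, at 0.596, 0.337 and 0.669 in 5xFAD, and at 0.599, 0.337 and 0.564 in 5xFAD/Cd5l tg/wt libraries, so that both amyloid genotypes lay above wild-type at a level too low to be tested. None of the 3 tested ligand genes passed in any comparison of genotypes with edgeR, DESeq2 or limma-voom (0, 1 and 0 genes with an unadjusted p under 0.05 in the order of the comparisons above). Between the amyloid genotypes 1 passed as higher without library 1 of 5xFAD/Cd5l tg/wt, and in 5xFAD 1 without the 3 libraries named above.

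None of 9 receptor genes passed either with any of those 3 tools, with 0, 0 and 3 genes at an unadjusted p under 0.05. Without library 1 of 5xFAD/Cd5l tg/wt, 1 passed as lower between the amyloid genotypes and 2 as higher between the remaining 5xFAD/Cd5l tg/wt libraries and wild-type. Il6st, which encodes gp130, ran from 94.7 to 125 CPM and Lifr, the leukaemia inhibitory factor receptor gene, from 46.4 to 56.2 CPM over the 9 libraries. Il6ra, the interleukin-6 receptor gene, was at 0.62 ± 0.17 (adjusted p = 0.133) in 5xFAD/Cd5l tg/wt against wild-type.

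Among 9 tested kinase and STAT genes, Stat2 and Tyk2, which serve interferon receptors, rose in 5xFAD/Cd5l tg/wt mice over 5xFAD mice. Stat2 was at 26.2, 23.9 and 29.2 CPM in wild-type, at 21.4, 19.8 and 23.3 CPM in 5xFAD and at 28.9, 34.7 and 31.9 CPM in 5xFAD/Cd5l tg/wt libraries. The 5xFAD libraries were the lowest, and the others overlapped. Stat2 rose by 0.57 ± 0.11 (adjusted p = 0.00918, edgeR's quasi-likelihood test), but not without 5xFAD library 1 (0.0505) or 2 (0.0692) or without the 3 libraries named above (0.0832). Tyk2 rose by 0.41 ± 0.11 (adjusted p = 0.0452) and kept its call only without wild-type library 3 or library 1 of 5xFAD/Cd5l tg/wt, while leaving out any 1 of the other 7 libraries gave 0.0633 to 0.160, and 8 of 11 other settings lost it (0.0515 to 0.265). In the other 2 comparisons of genotypes none of the 9 passed with edgeR, DESeq2 or limma-voom, with 1 gene (5xFAD) and 5 genes (5xFAD/Cd5l tg/wt) at an unadjusted p under 0.05. Without library 1 of 5xFAD/Cd5l tg/wt, 1 passed as lower in that genotype against wild-type, and the count between the amyloid genotypes was 4 with 1 lower.

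Of 16 inhibitors and targets of STAT3, Myc and Tnfrsf1a rose in 5xFAD, and Cebpd and Tnfrsf1a rose in 5xFAD/Cd5l tg/wt against wild-type. Socs3, the feedback inhibitor of gp130 signalling, ran from 2.21 to 4.42 CPM in wild-type, 2.78 to 3.59 in 5xFAD and 3.37 to 5.13 in 5xFAD/Cd5l tg/wt libraries, which overlapped. Myc, a growth-promoting transcription factor gene, had 2.44, 2.31 and 2.28 CPM in wild-type, 5.03, 4.32 and 4.42 CPM in 5xFAD, and 3.93, 4.65 and 4.01 CPM in 5xFAD/Cd5l tg/wt libraries. Every amyloid library was above every wild-type library. Myc rose by 0.96 ± 0.19 in 5xFAD (adjusted p = 0.0154), but not without wild-type library 2 (0.0552) or 5xFAD library 1 (0.0842) or 2 (0.0509), and it was at 0.84 ± 0.19 (adjusted p = 0.0512) in 5xFAD/Cd5l tg/wt against wild-type.

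Cebpd, a transcription factor gene of the acute-phase response, rose by 1.01 ± 0.21 (adjusted p = 0.0294, edgeR's quasi-likelihood test) in 5xFAD/Cd5l tg/wt against wild-type. It was not called without wild-type library 2 or 3, 5xFAD library 1 or 2 or library 2 or 3 of 5xFAD/Cd5l tg/wt (0.0538 to 0.0955), in a fit of those 6 libraries (0.0995), with the replicate block (0.0523) or without the 3 libraries named above (0.124). Tnfrsf1a, which encodes a receptor for tumour necrosis factor, rose by 0.62 ± 0.16 in 5xFAD (adjusted p = 0.0488) and 0.73 ± 0.16 in 5xFAD/Cd5l tg/wt (0.0381). In 5xFAD it lost its call when any 1 of the 6 compared libraries, or library 3 of 5xFAD/Cd5l tg/wt, was absent (0.0723 to 0.202), or with total-count scaling (0.0601), upper-quartile scaling (0.0538) or limma-voom (0.0643). The call in 5xFAD/Cd5l tg/wt was kept only when library 2 of 5xFAD/Cd5l tg/wt was the library left out (0.0548 to 0.141 otherwise), and it was lost with limma-voom (0.0534) and in a fit of those 6 libraries (0.135). None of the 16 passed between the amyloid genotypes with edgeR, DESeq2 or limma-voom, with 5 at an unadjusted p under 0.05, and 1 passed as lower without library 1 of 5xFAD/Cd5l tg/wt.

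Cd44 (ENSMUSG00000005087, chromosome 2, 102641486 to 102732010, minus strand) was nearly the same in the 3 wild-type mice, at 3.78, 3.71 and 3.94 CPM. It was at 5.49, 3.76 and 6.83 CPM in 5xFAD and at 7.79, 8.29 and 7.73 CPM in 5xFAD/Cd5l tg/wt libraries. The 5xFAD libraries spread from the wild-type level upward, and the 5xFAD/Cd5l tg/wt libraries lay together above all others. Cd44 rose by 1.06 ± 0.21 in 5xFAD/Cd5l tg/wt against wild-type (adjusted p = 0.0203, edgeR's quasi-likelihood test), while the differences were 0.49 ± 0.21 (0.271) in 5xFAD against wild-type and 0.57 ± 0.20 (0.113) between the amyloid genotypes. The call was lost without wild-type library 1 (0.0746), 2 (0.0676) or 3 (0.0625), without library 2 (0.0677) or 3 (0.0710) of 5xFAD/Cd5l tg/wt, and without the 3 libraries named above (0.131), at log2 fold changes of 1.03 to 1.08.

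Partners of CD44 were tested as 10 genes of its ligands, their enzymes and its cytoskeletal linkers. Msn, which encodes moesin, a linker of membrane proteins such as CD44 to actin, was at 34.6, 28.3 and 33.9 CPM in wild-type, at 35.8, 36.2 and 41.6 CPM in 5xFAD and at 51.4, 45.3 and 46.2 CPM in 5xFAD/Cd5l tg/wt libraries. The 3 genotypes did not overlap. Msn rose by 0.56 ± 0.10 in 5xFAD/Cd5l tg/wt against wild-type (adjusted p = 0.0111) as the 1 gene of the 10 that passed. Spp1, which encodes the CD44 ligand osteopontin, was at 27.1, 24.1 and 47.0 CPM in wild-type, 41.0, 33.3 and 39.6 CPM in 5xFAD and 26.5, 10.7 and 19.5 CPM in 5xFAD/Cd5l tg/wt libraries, a difference of -1.003 ± 0.283 (adjusted p = 0.0567) between the amyloid genotypes. None of the 10 passed in 5xFAD against wild-type with edgeR, DESeq2 or limma-voom (1 at an unadjusted p under 0.05), and none passed in 5xFAD/Cd5l tg/wt against 5xFAD with edgeR or DESeq2 (3 at an unadjusted p under 0.05), where limma-voom called 1 lower, as did the fits without wild-type library 3 or without library 1 of 5xFAD/Cd5l tg/wt.

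S1pr3 (ENSMUSG00000067586, chromosome 13, 51562675 to 51576833, plus strand) did not pass in any comparison. It was at 8.43, 10.3 and 5.26 CPM in wild-type, at 9.86, 7.46 and 11.4 CPM in 5xFAD, and at 12.1, 10.7 and 10.2 CPM in 5xFAD/Cd5l tg/wt libraries. The ranges overlapped, and wild-type library 3 was the lowest of all. The difference between 5xFAD and wild-type was 0.25 ± 0.22 (adjusted p = 0.654), and 0.03 without wild-type library 3. Between 5xFAD/Cd5l tg/wt and wild-type it was 0.46 ± 0.22 (adjusted p = 0.440), with a 95% interval of -0.026 to 0.940. None of 9 other tested genes of sphingosine-1-phosphate signalling passed in any comparison of genotypes with edgeR, DESeq2 or limma-voom (0, 2 and 1 genes with an unadjusted p under 0.05), and 1 passed as lower between the amyloid genotypes without 5xFAD library 3. They included Sphk1, the kinase that makes the lipid (-0.38 ± 0.19, adjusted p = 0.357, in 5xFAD against wild-type), and Sgpl1, the lyase that breaks it down (0.28 ± 0.09, adjusted p = 0.176, in 5xFAD/Cd5l tg/wt against wild-type).

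Serpina3n (ENSMUSG00000021091, chromosome 12, 104372988 to 104380588, plus strand), which encodes a secreted serine protease inhibitor, was at 18.1, 17.8 and 20.3 CPM in wild-type, at 52.7, 47.8 and 59.8 CPM in 5xFAD, and at 94.3, 49.2 and 51.6 CPM in 5xFAD/Cd5l tg/wt libraries. Every amyloid library was above every wild-type library, and between the amyloid genotypes the ranges overlapped except for library 1 of 5xFAD/Cd5l tg/wt. Serpina3n rose by 1.51 ± 0.21 in 5xFAD (adjusted p = 0.00169, edgeR's quasi-likelihood test) and by 1.80 ± 0.21 in 5xFAD/Cd5l tg/wt (adjusted p = 0.000451) against wild-type. The difference between the amyloid genotypes was 0.28 ± 0.20 (adjusted p = 0.428), -0.08 without library 1 of 5xFAD/Cd5l tg/wt, and 0.81 (adjusted p = 0.00159) with that library alone and without wild-type library 3. The gene lies in a family of close copies, and the sources used here do not say how reads matching several copies were counted. The 10 other Serpina3 genes listed held 119 counts over all libraries, beside 6498 for Serpina3n, and none was high enough to be tested.

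Lcn2 (ENSMUSG00000026822, chromosome 2, 32274645 to 32278264, minus strand), a marker of strong astrocyte reactivity in other models, was close to absent. It had 7, 0 and 1 counts in wild-type, 1, 3 and 4 counts in 5xFAD and 4, 3 and 7 counts in 5xFAD/Cd5l tg/wt libraries, which overlapped. The ratio to wild-type was 1.00 in 5xFAD (95% exact binomial interval 0.329 to 3.07) and 1.77 in 5xFAD/Cd5l tg/wt (0.693 to 4.87). Both intervals include a ratio of 1 and cover counting error only. Neutrophils also make lipocalin-2, and the 6 neutrophil markers summed to at most 0.415 CPM in any library. Of the lipocalin-2 receptors and partners, none of 3 tested genes passed with edgeR, DESeq2 or limma-voom in any comparison of genotypes, and none had an unadjusted p under 0.05.

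Timp1 (ENSMUSG00000001131, chromosome X, 20736405 to 20740974, plus strand) had 3, 3 and 1 counts in wild-type, 9, 7 and 6 counts in 5xFAD and 4, 11 and 6 counts in 5xFAD/Cd5l tg/wt libraries. All amyloid libraries were above all wild-type libraries at these low counts. Pooled over libraries, the ratio to wild-type was 3.16 (95% exact binomial interval 1.30 to 8.75) in 5xFAD and 3.03 (1.24 to 8.45) in 5xFAD/Cd5l tg/wt, and in a fit without a filter the adjusted p was 0.358 and 0.467. Timp1 lies on the opposite strand within Syn1, a synaptic vesicle gene with 75203 counts beside 50 for Timp1, and the sources used here do not say whether counting used strand, so that reads of the 2 genes may not be separated.

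The list of other tissue inhibitors and metalloproteinases also held Cd63, and 11 of its genes were tested. Cd63, which encodes a tetraspanin that binds TIMP1, rose by 0.51 ± 0.10 in 5xFAD (adjusted p = 0.0150) and 0.50 ± 0.10 in 5xFAD/Cd5l tg/wt (0.0234) against wild-type, as the 1 gene that passed. In 5xFAD the call was lost without wild-type library 2 or 5xFAD library 1 or 2 (0.0554 to 0.0771). The other call was lost without wild-type library 2 or 3, 5xFAD library 1 or 2 or library 3 of 5xFAD/Cd5l tg/wt (0.0501 to 0.131), and in a fit of those 6 libraries (0.111). None of the 11 passed between the amyloid genotypes with edgeR, DESeq2 or limma-voom (2 at an unadjusted p under 0.05), and 2 passed as lower without library 1 of 5xFAD/Cd5l tg/wt.

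Cp (ENSMUSG00000003617, chromosome 3, 20011218 to 20063309, plus strand), the ceruloplasmin gene, was at 15.9, 15.3 and 18.6 CPM in wild-type, at 14.1, 13.8 and 15.5 CPM in 5xFAD, and at 21.2, 13.1 and 15.1 CPM in 5xFAD/Cd5l tg/wt libraries. The ranges overlapped, and library 1 of 5xFAD/Cd5l tg/wt was the highest. The difference was -0.20 ± 0.16 (adjusted p = 0.613) in 5xFAD and -0.01 ± 0.16 (adjusted p = 0.988) in 5xFAD/Cd5l tg/wt against wild-type. Cp overlaps Hps3 on the opposite strand, with 2267 and 2627 counts in all, so that its counts are uncertain without strand. Stat3, Cd44 and S1pr3 overlap opposite-strand genes too, with 352 counts or fewer each.

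Iron handling genes around ceruloplasmin moved in different comparisons. Of 7 tested, Ftl1, the ferritin light chain gene, rose by 0.41 ± 0.07 in 5xFAD (adjusted p = 0.00961, and 0.0579 without 5xFAD library 1). Tfrc, the transferrin receptor gene, and Slc40a1, which encodes the iron exporter ferroportin, rose by 0.51 ± 0.10 (adjusted p = 0.0121) and 0.63 ± 0.15 (0.0271) in 5xFAD/Cd5l tg/wt against 5xFAD. Tfrc failed the threshold without 5xFAD library 1 (0.0770) or 2 (0.0825) or without the 3 libraries named above (0.0647). Slc40a1 was not called without 5xFAD library 1 (0.135) or 2 (0.129), library 2 (0.0885) or 3 (0.0907) of 5xFAD/Cd5l tg/wt, or the 3 libraries together (0.189). None of the 7 passed in 5xFAD/Cd5l tg/wt against wild-type with edgeR or limma-voom (4 at an unadjusted p under 0.05), where DESeq2 called 1, as did the fit without library 2 of 5xFAD/Cd5l tg/wt.

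A further list of genes known from reactive astrocytes had its smallest p-values against wild-type at Cd14, H2-D1 and Aspg. Of 22 tested genes, 5 rose in 5xFAD/Cd5l tg/wt against wild-type (median 0.257), 1 in 5xFAD against wild-type (median 0.242) and none between the amyloid genotypes (median 0.116, 6 with an unadjusted p under 0.05, 0 by limma-voom and 3 by DESeq2, of which 1 lower). The count in 5xFAD was 2 without 5xFAD library 3. Between the amyloid genotypes it was 1 without wild-type library 3, 5xFAD library 3 or library 2 of 5xFAD/Cd5l tg/wt and 2 without its library 1. Cd14, a co-receptor for lipopolysaccharide that microglia also make, was at 3.02, 2.25 and 2.56 CPM in wild-type, at 5.96, 5.95 and 8.23 CPM in 5xFAD and at 10.1, 6.61 and 6.32 CPM in 5xFAD/Cd5l tg/wt libraries, all amyloid libraries being higher. It rose by 1.36 ± 0.24 (adjusted p = 0.00844) and 1.55 ± 0.24 (0.00382) against wild-type, and the MHC class I gene H2-D1 rose by 0.80 ± 0.13 (0.00588) in 5xFAD/Cd5l tg/wt mice. Aspg, an asparaginase gene, was at 4.59, 4.01 and 2.70 CPM in wild-type, at 5.69, 5.72 and 4.68 CPM in 5xFAD and at 8.19, 7.82 and 9.20 CPM in 5xFAD/Cd5l tg/wt libraries, in 3 ranges without overlap.

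Aspg rose by 1.15 ± 0.20 in 5xFAD/Cd5l tg/wt against wild-type (adjusted p = 0.00959), but not without library 3 of 5xFAD/Cd5l tg/wt (0.0629) or without the 3 libraries named above (0.0870). Ggta1 (1.27 ± 0.28, adjusted p = 0.0396) and the immunoproteasome gene Psmb8 (1.03 ± 0.23, 0.0476) completed the 5. Ggta1 lost its call without wild-type library 2 or 3, 5xFAD library 1 or library 1 or 3 of 5xFAD/Cd5l tg/wt (0.0572 to 0.146), with limma-voom (0.0612) or in a fit of those 6 libraries (0.0584). Psmb8 failed the threshold without any 1 wild-type library, 5xFAD library 3 or library 3 of 5xFAD/Cd5l tg/wt (0.0818 to 0.199), with upper-quartile or total-count scaling (0.0548 and 0.0552), with limma-voom (0.0696), with the replicate block (0.0694), in a fit of those 6 libraries (0.07465) or without the 3 libraries (0.183). The count of 5 was 8 with DESeq2 (1 of them lower), 9 without a filter (2 of them lower), 3 with limma-voom, 3 in a fit of the 6 libraries, and 3, 3 and 2 without wild-type library 2, wild-type library 3 and library 3 of 5xFAD/Cd5l tg/wt.

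Genes listed for astrocytes near amyloid plaques were led by C4b and Cd9, and bulk RNA does not tell which cells made them. C4b, a complement component gene, was at 61.9, 39.9 and 42.5 CPM in wild-type, at 102, 92.7 and 112 CPM in 5xFAD, and at 261, 152 and 169 CPM in 5xFAD/Cd5l tg/wt libraries. As for Gfap and Osmr, the 3 genotypes formed separate ranges and library 1 of 5xFAD/Cd5l tg/wt was the highest. C4b rose by 2.01 ± 0.20 (adjusted p = 0.000121) in 5xFAD/Cd5l tg/wt and by 1.09 ± 0.20 (0.0107) in 5xFAD against wild-type, and by 0.92 ± 0.19 (0.0161) between the amyloid genotypes. The second call was lost without 5xFAD library 1 (0.0512), and the last without 5xFAD library 1 (0.0814) or 2 (0.101). Cd9, a tetraspanin gene, rose by 0.83 ± 0.10 (adjusted p = 0.000808) in 5xFAD and by 0.92 ± 0.10 (0.000339) in 5xFAD/Cd5l tg/wt against wild-type.

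Of the 19 tested genes of that list, 5 rose in 5xFAD against wild-type, with Ctsb, Cst3 and Clu beside C4b and Cd9, and the list had a median of 0.309. Against wild-type 5 rose in 5xFAD/Cd5l tg/wt (C4b, Cd9, Ctsb, Clu and Igfbp5, median 0.289), and between the amyloid genotypes C4b was the 1 that rose (median 0.005). The first count was 3 without wild-type library 1, 2 without wild-type library 2, 1 without 5xFAD library 1, 2 without 5xFAD library 2 or 3, 8 without library 1 of 5xFAD/Cd5l tg/wt, 8 in a fit of the 6 libraries compared and 10 without the 3 libraries named above. Ctsb, Cst3 and Clu, whose rises in 5xFAD were 0.32 ± 0.07, 0.45 ± 0.10 and 0.31 ± 0.07, each failed to pass without 5xFAD library 1, 2 or 3 (adjusted p = 0.0544 to 0.133) and, in part, without a wild-type library (0.0511 to 0.0730). Of those called in 5xFAD/Cd5l tg/wt, Igfbp5 was not called without wild-type library 2 (0.0539), Clu not without 5xFAD library 1 (0.0521) or library 3 of 5xFAD/Cd5l tg/wt (0.1025), and Ctsb passed only when library 1 or 2 of 5xFAD/Cd5l tg/wt was the library left out (0.0506 to 0.106 otherwise). The second count was 3 without wild-type library 2, 5xFAD library 1 or library 3 of 5xFAD/Cd5l tg/wt, 2 in a fit of the 6 libraries compared and 10 without the 3 libraries named above. In the fit of 6 libraries Igfbp5 (0.0565), Clu (0.112) and Ctsb (0.130) lost their calls.

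Among the 5xFAD/Cd5l tg/wt mice several members were highest in the same library. Library 1 was the highest of its genotype for 6 of the 8 tested members, while 37% of all tested genes were highest there. Its level was 1.92 times the mean of the other 2 libraries for Vim, 1.87 times for Serpina3n, 1.55 times for Osmr, 1.498 times for Cp and 1.31 times for Gfap, but 0.97 times for Cd44 and 0.94 times for Stat3. Among the 5xFAD mice, library 3 was the highest for 7 of the 8 members, beside 38.9% of all tested genes.

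**Figure D3:**
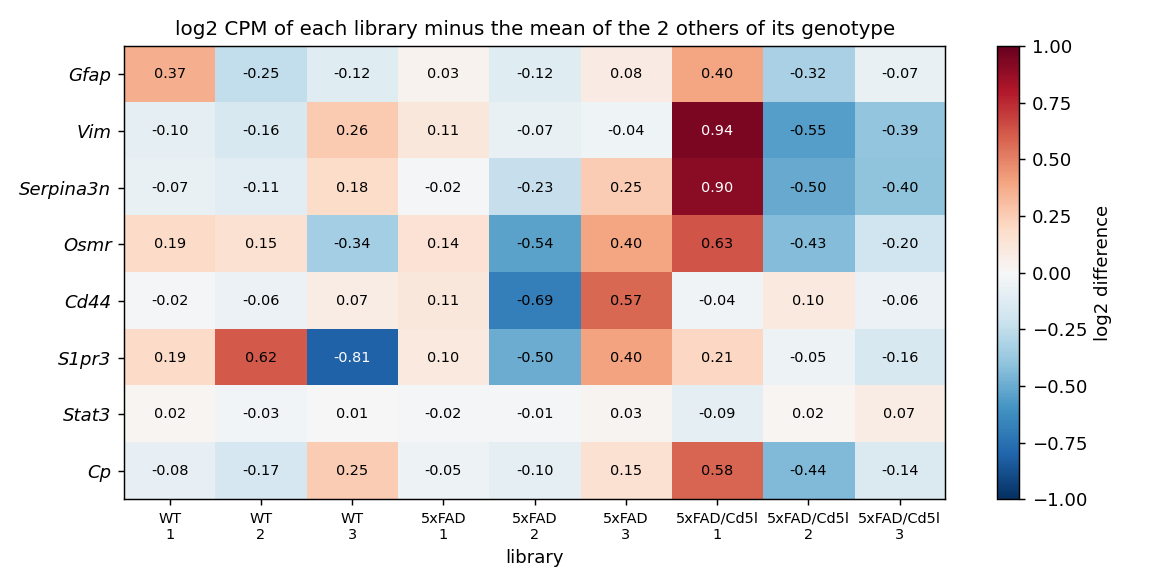
Log2 CPM of each tested member in a library minus the mean of the other 2 libraries of its genotype (colour scale and printed values), by member (rows) and library (columns). Library 1 of 5xFAD/Cd5l tg/wt is above its genotype for Vim, Serpina3n, Osmr, Cp and Gfap, and below it for Cd44 and Stat3.

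**Figure D4:**
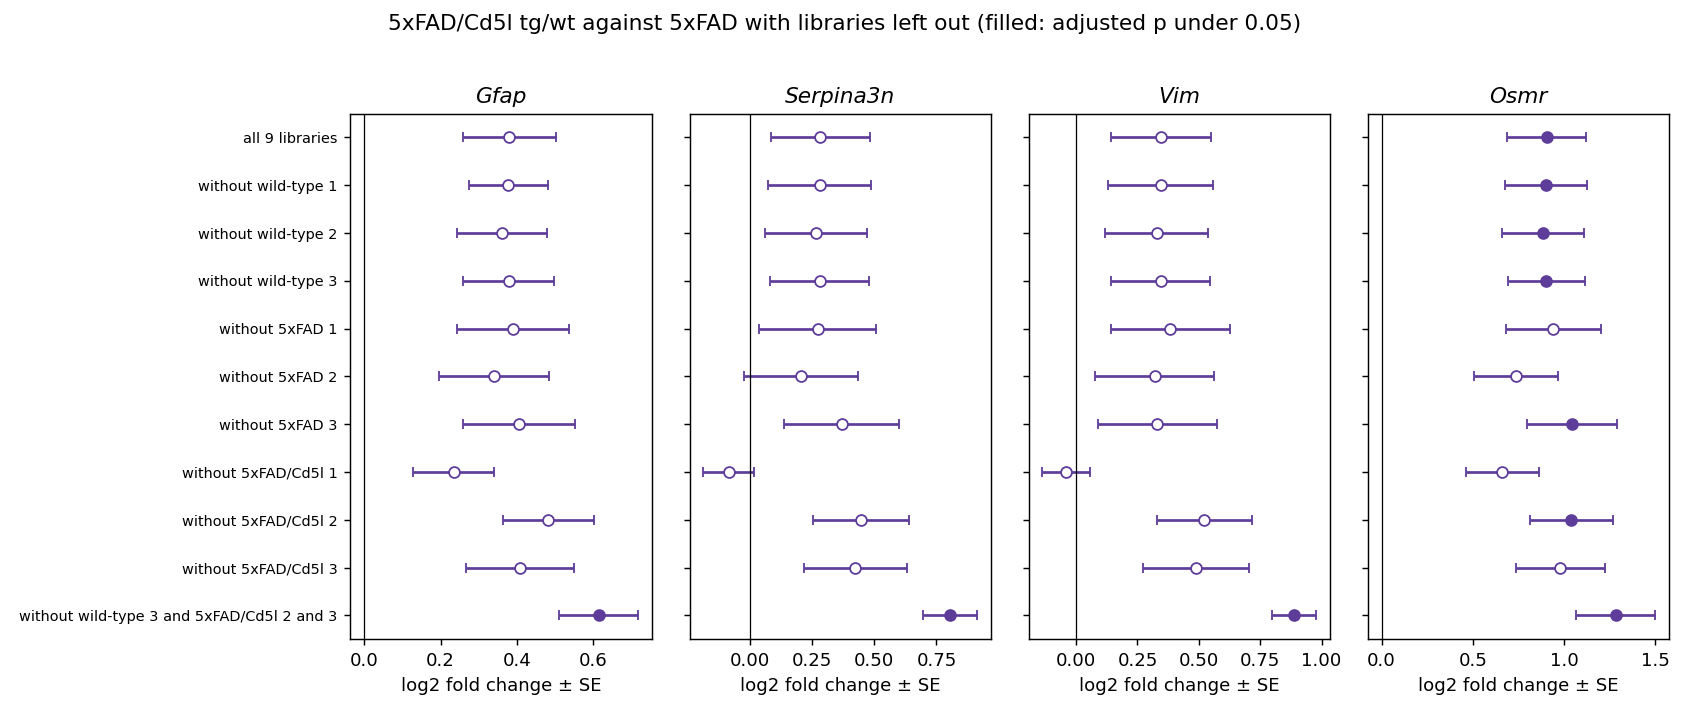
Log2 fold change (x axes, points with bars for the SE) of Gfap, Serpina3n, Vim and Osmr between 5xFAD/Cd5l tg/wt and 5xFAD, with all 9 libraries and with libraries left out (rows), filled where the adjusted p was under 0.05. Vim and Serpina3n cross 0 without library 1 of 5xFAD/Cd5l tg/wt (-0.04 and -0.08), while Gfap and Osmr stay above 0 in every row.

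No marker of astrocyte identity passed where Gfap rose. The 12 genes, among them the glutamate transporter genes Slc1a2 and Slc1a3, summed to 7302 to 7877 CPM in wild-type, 8140 to 8439 CPM in 5xFAD and 7251 to 7800 CPM in 5xFAD/Cd5l tg/wt libraries. None of the 12 passed against wild-type in 5xFAD (2 with an unadjusted p under 0.05) or in 5xFAD/Cd5l tg/wt mice (3), and DESeq2 and limma-voom called none either. The 5xFAD sums were the highest without overlap. In 5xFAD 2 of the 12 passed as higher without the 3 libraries named above, and 1 passed as higher against wild-type without library 1 of 5xFAD/Cd5l tg/wt. Glul (-0.37 ± 0.09, adjusted p = 0.0342) and Gjb6 (-0.46 ± 0.12, 0.0421) fell in 5xFAD/Cd5l tg/wt against 5xFAD, and neither passed without 5xFAD library 1 or 2, library 2 or 3 of 5xFAD/Cd5l tg/wt, or the 3 libraries named above. Per 1000 counts of the identity markers, Gfap had 30.4 ± 6.04 counts in wild-type, 83.2 ± 5.49 in 5xFAD and 117 ± 17.3 (SD, n = 3) with Cd5l added. On the same scale Serpina3n had 2.44 ± 0.160, 6.47 ± 0.843 and 8.52 ± 3.15, and Osmr 0.461 ± 0.0760, 0.802 ± 0.185 and 1.62 ± 0.406, in the same order of genotypes.

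Markers of microglia rose against wild-type too, and their part in the result was not tested. The 10 microglial markers summed to 340 to 379 CPM in wild-type, 645 to 833 CPM in 5xFAD and 772 to 887 CPM in 5xFAD/Cd5l tg/wt libraries, and none was at 0 in any library. All 10 rose in 5xFAD and 9 of 10 in 5xFAD/Cd5l tg/wt against wild-type, and none passed between the amyloid genotypes with edgeR, DESeq2 or limma-voom (3 with an unadjusted p under 0.05), although 2 passed as higher without 5xFAD library 3. The count of 10 was 5 without wild-type library 1, or without 5xFAD library 1 or 3. The highest 5xFAD sum was in library 3, which was also the highest for 7 of the 8 members. In 5xFAD/Cd5l tg/wt the sum was highest in library 3 (887 CPM, beside 871 in library 1). There library 1 was the highest for 6 of the 8 members and library 3 for 1.

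Vascular markers had another pattern. The 8 endothelial markers summed to 214 to 240 CPM in wild-type, 130 to 168 CPM in 5xFAD and 228 to 274 CPM in 5xFAD/Cd5l tg/wt libraries. Of these, 3 fell in 5xFAD against wild-type and 7 rose in 5xFAD/Cd5l tg/wt mice over 5xFAD mice (3 without 5xFAD library 1 or 2, without library 2 or 3 of 5xFAD/Cd5l tg/wt, or without the 3 libraries named above). Osmr rose in the same comparison. In 5xFAD against wild-type the endothelial markers had a median of -0.546, while Osmr was higher in every 5xFAD library. Among the 5xFAD/Cd5l tg/wt libraries the endothelial sum was lowest in library 1 (228 CPM, beside 264 and 274). Osmr was highest in that library (16.2 CPM). Mural cell markers, 6 in all, summed to 183 to 212 CPM in wild-type and 153 to 170 CPM in 5xFAD libraries. In 5xFAD/Cd5l tg/wt libraries their sums were 207 to 224 CPM. All 6 were lower in 5xFAD against wild-type, 1 of them past the threshold. All 6 were higher in 5xFAD/Cd5l tg/wt against 5xFAD, 1 of them past the threshold. The part of vascular cells in the rise of Osmr was not tested. The 6 markers of meningeal fibroblasts summed to 56.0 to 68.9, 55.6 to 74.5 and 51.7 to 77.0 CPM in the same order of genotypes. The genotypes overlapped, and library 1 of 5xFAD/Cd5l tg/wt was the highest. Within its genotype that library also had the highest sums of mural cell (224 CPM), ependymal (23.7) and oligodendrocyte (6898) markers. It had the lowest sums of choroid plexus (330), neuronal (6441) and T cell (6.86) markers, beside the endothelial ones.

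**Figure D5:**
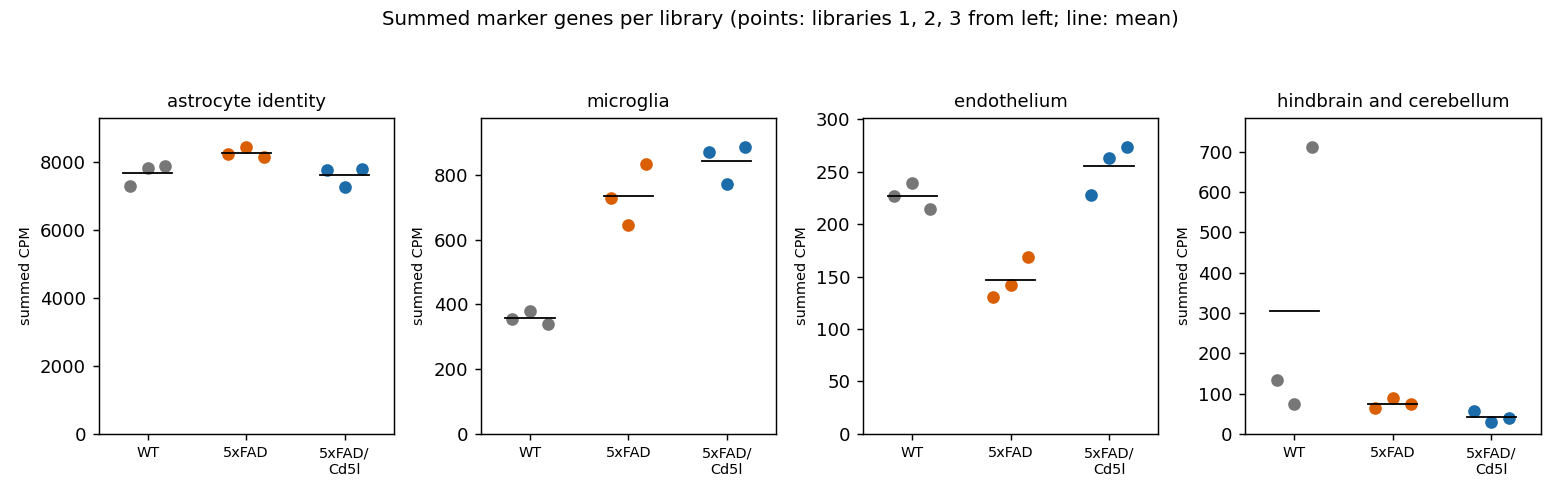
Summed CPM (y axes, starting at 0) of the markers of astrocyte identity, microglia, endothelium, and hindbrain and cerebellum in each library, with lines for the genotype means. Microglial sums are 340 to 379 CPM in wild-type and at least 645 CPM in both amyloid genotypes, while identity sums stay between 7251 and 8439 CPM, and wild-type library 3 stands apart at 712 CPM of hindbrain and cerebellum markers.

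Compared per kilobase of gene length, the members kept 1 order of level in all 3 genotypes: Gfap, Serpina3n, Vim, Stat3, S1pr3, Cp, Cd44, Osmr, Timp1 and Lcn2. Gfap stood at 54.9 ± 8.47 CPM per kilobase in wild-type and 163 ± 7.81 in 5xFAD (SD, n = 3). In wild-type mice its neighbours Serpina3n (9.07 ± 0.679) and Vim (8.83 ± 0.955) did not differ beyond their spread, and neither did S1pr3 (1.79 ± 0.569) and Cp (1.74 ± 0.182). In 5xFAD mice Serpina3n (25.9 ± 2.92) stood clear of Vim (10.1 ± 0.469), while Osmr (0.546 ± 0.117) and Timp1 (0.522 ± 0.129) were within their spread.

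The genes whose profiles over the 9 libraries lay nearest to those of the 4 members that passed were found by the root mean square difference of log2 CPM after removal of each gene's mean. For Gfap they were Itgb2, the beta chain gene of leukocyte integrins (0.106), the long non-coding RNA AU020206 (0.149) and Fcgr2b, an inhibitory Fc receptor gene (0.182). Itgb2 had a mean of 5.75 CPM in wild-type, 16.1 CPM in 5xFAD and 21.1 CPM in 5xFAD/Cd5l tg/wt libraries. For Serpina3n they were Cd14 (0.181), the immune receptor gene Havcr2 (0.221) and Itgb2 (0.224).

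For Osmr the nearest were Slfn8 (0.172), C4b (0.208) and Plau, which encodes the urokinase plasminogen activator (0.231), and Plau had a mean of 2.23, 5.77 and 8.84 CPM in the same order of genotypes. For Cd44 they were Parp14 (0.111), the sialic-acid-binding receptor gene Cd33 (0.149) and Fermt3, which encodes an integrin activator of blood cells (0.151). Cd33 had a mean of 9.01, 10.6 and 15.8 CPM in that order. Likeness here includes the difference between genotypes itself and is a description of these 9 libraries.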

How the data were processed

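The authors deposited 1 table of unnormalized read counts per gene for 9 libraries, with symbols, coordinates, biotypes and gene length as another value per the file header. The submitters' processing notes name the build GRCm39 (mm39). Per the labels total RNA of the brain without cerebellum was sequenced on an Illumina platform. The aligner, the counting tool, strandedness and how multi-mapping reads were handled are not stated in the sources used here.

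Low counts were filtered with filterByExpr of edgeR 4.0.16 (counts of at least 10 and totals of at least 15, genotype as group). This kept 17575 genes and took away no more than 0.161% of any library. After TMM scaling (0.987 to 1.018), a quasi-likelihood model with a term for each genotype was fitted to all 9 libraries in edgeR (limma 3.58.1, R 4.3.3), with Benjamini-Hochberg adjustment over all tested genes and a threshold of 0.05. The SE is the log2 fold change divided by the square root of F. CPM use the scaled library sizes. Adjusted p-values without another tool beside them come from this test. No pair of libraries held identical counts, and the labels call each library a separate mouse.

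The members, 13 pathway lists of 149 genes (148 found) and 12 marker lists of 85 genes were chosen with earlier results of these data known. Named are all members, up to 4 genes with the smallest p in each list and comparison, and the 3 nearest profiles (prior count 2, mean of at least 1 CPM) of each member that passed. Il6st, Il10, Lep, Osm and Socs3 were named beside the rule for their role, after their values were seen, as were Glul and Gjb6 among the markers. Ratios of untested genes carry 95% exact binomial intervals.

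Alternatives were other scalings (RLE, upper quartile, total count), all genes unfiltered, genes with 1 CPM in 3 libraries or more, and DESeq2 1.42.0 and limma-voom as tools. Others were a fit of the 6 compared libraries alone, a replicate block, and leaving out each library in turn. A further fit left out the 3 libraries with the highest or lowest hindbrain and cerebellum sums. Offsets for gene length were chosen after seeing the data. Promoters came from RefSeq (GRCm38.p6) by symbol for 10 of 10 members. Figures were drawn with matplotlib 3.10.9.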

Additional observations from a re-analysis of the deposited data

How the results depend on the processing

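Directions and calls of Gfap and Serpina3n against wild-type, and of Osmr in 5xFAD/Cd5l tg/wt against wild-type, held in every alternative run. Of the alternative values of the 8 tested members' fold changes over 4 comparisons, 585 kept their direction and side of the threshold, 11 lost a call, 27 gained one and 9 reversed. The reversed values belong to differences that had not passed. With 1 library left out, the differences between the amyloid genotypes ran from -0.0411 to 0.5225 for Vim, -0.0834 to 0.4474 for Serpina3n, -0.0530 to 0.0015 for Stat3 and -0.0333 to 0.3226 for Cp, and each reversed without replicate 1 of 5xFAD/Cd5l tg/wt. For Cp in that genotype against wild-type they ran from -0.2308 to 0.1251, reversed without replicate 3 of wild-type or replicate 2 or 3 of 5xFAD/Cd5l tg/wt. Without the 3 libraries named above, this Cp value was 0.4326, and 0.1661 for the mean of both amyloid genotypes.

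Counts of members past the threshold in 5xFAD against wild-type (2) were 4 with DESeq2, 5 without the 3 libraries and 2 to 4 with 1 library left out. In 5xFAD/Cd5l tg/wt against 5xFAD (1) they were 3 without a filter, 2 with DESeq2, 2 with the replicate block, 4 without the 3 libraries, 0 with offsets for gene length and 0 to 1 with 1 library left out. Against wild-type, the count for 5xFAD/Cd5l tg/wt (4) was 3 to 4 with 1 library left out, and that for the mean of both amyloid genotypes (3) was 5 without a filter, 5 with DESeq2 and 3 to 4 with 1 library left out. The cause of these changes was not tested. Between the amyloid genotypes 85.8% of all calls were higher, 66% without a filter and 74.6% with DESeq2. Against wild-type, the 5xFAD/Cd5l tg/wt share was 87.4%, 49.2% without a filter and 70.8% with DESeq2.

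Counts over all genes in 5xFAD against wild-type (615) were 1354 without a filter, 1154 without the 3 libraries and 206 to 850 with 1 library left out. In 5xFAD/Cd5l tg/wt against 5xFAD (1095) they were, in the same order, 2063, 630 and 278 to 2069. Against wild-type, the 5xFAD/Cd5l tg/wt count of 277 became 1062 without a filter, 472 with DESeq2, 176 with only the 6 libraries compared and 158 to 686 with 1 library left out. For the mean of both amyloid genotypes (279) they were 973 without a filter, 430 with DESeq2, 562 without the 3 libraries and 182 to 432.

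Same-numbered libraries had correlations of -0.100 to 0.154 after removal of genotype means, with 1 of 9 over 0.1, so the numbers were not taken to pair the mice. The replicate block is given for that reason as a count alone, apart from Gfap, Cebpd, Psmb8 and Clu (adjusted p = 0.0610 in 5xFAD). Depth limits Lcn2 and Timp1, which were too low to be tested.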
